A study of Arabidopsis thaliana with 24 samples.

Results

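Detached Arabidopsis leaves were kept in darkness, and 66 of the 32627 genes on the array stayed near their starting level in ein2/ore3 while going up strongly in ahk3/ore12 and in wild-type Col. These genes were picked by their change between 0 and 3 days after transfer to darkness (DAT), measured as the difference of log2 expression within a genotype. A gene was taken when its mean change was at most 1 in ein2/ore3, its mean change was at least 2 in ahk3/ore12, and its change was at least 3 in each Col replicate number. On this scale a difference of 1 is a doubling of signal. The choice of the genes rests on the arrays of 0 and 3 DAT, so values at those times are given below as a description, and comparisons between genotypes are tested on the arrays of 1 and 2 DAT. By the Col criterion alone 475 genes were raised, 386 of them also met the ahk3/ore12 criterion, and the other 320 of those changed by more than 1 in ein2/ore3.

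RNA from rosette leaves 3 and 4, counted in order of emergence, was hybridised to a 1-colour NimbleGen array, with 2 biological replicates for each of 12 conditions, 24 arrays in all. The ein2/ore3 plants carried ein2-44/ore3-1, an allele that makes the plant insensitive to ethylene. The ahk3/ore12 plants carried ore12-1, a gain-of-function allele of the cytokinin receptor gene AHK3. Col plants had neither allele. Each mutant was a single allele. Plants of all 3 genotypes grew under long days until 21 days of age, when leaves of 12 days after emergence were cut and floated on 3 mM MES buffer in the dark. Leaves of 0 DAT were the unincubated control of each genotype. Whole leaves were used, so fewer cells of a type and less RNA per cell cannot be told apart in any value below. The leaf label was checked: 5 mesophyll marker genes stood between 10.97 and 16.23 in log2 expression at 0 DAT, and 5 of 6 marker genes of other organs lay among the dimmest 25% of genes.

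Ethylene is perceived at the endoplasmic reticulum by receptors that hold the kinase CTR1 active, and without ethylene CTR1 keeps the membrane protein EIN2 phosphorylated and silent. When ethylene binds, the C-terminal part of EIN2 is released and stabilises EIN3 and EIL1, transcription factors that switch on ERF1 and other ERF genes. The pathway speeds the yellowing of leaves, and plants lacking EIN2 stay green for longer in darkness. Cytokinin, sensed in leaves mainly through AHK3, delays the same process.

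The arrays differed in a way that touches every comparison below. Replicate 1 minus replicate 2, as a median over the 66 genes, was 0.00, 0.26 and 0.14 in ein2/ore3 at 1, 2 and 3 DAT. In ahk3/ore12 it was 0.79, 0.68 and 0.64 at those times. In Col it was 1.94, 0.83 and 0.17, and at 0 DAT it lay between -0.06 and 0.11 in the 3 genotypes. The widest gap was thus in Col at 1 DAT, where 64 of the 66 genes were higher in replicate 1, 52 by at least 1 and 32 by at least 2. The other 320 raised genes showed the same at 1 DAT in Col, with a median of 1.32, and over all genes the correlation between replicates was lowest there, at 0.965 against 0.983 to 0.995 in the other conditions. Replicate 2 of ein2/ore3 at 2 DAT stood apart as a whole, with an array median of 8.91 against 9.02 to 9.16 on all other arrays. The part of these replicate differences in the results was not tested beyond leaving out each array in turn and fitting the slide as a block (replicate 1 and replicate 2 were each on a slide of their own, called the replicate block below).

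**Figure D1:**
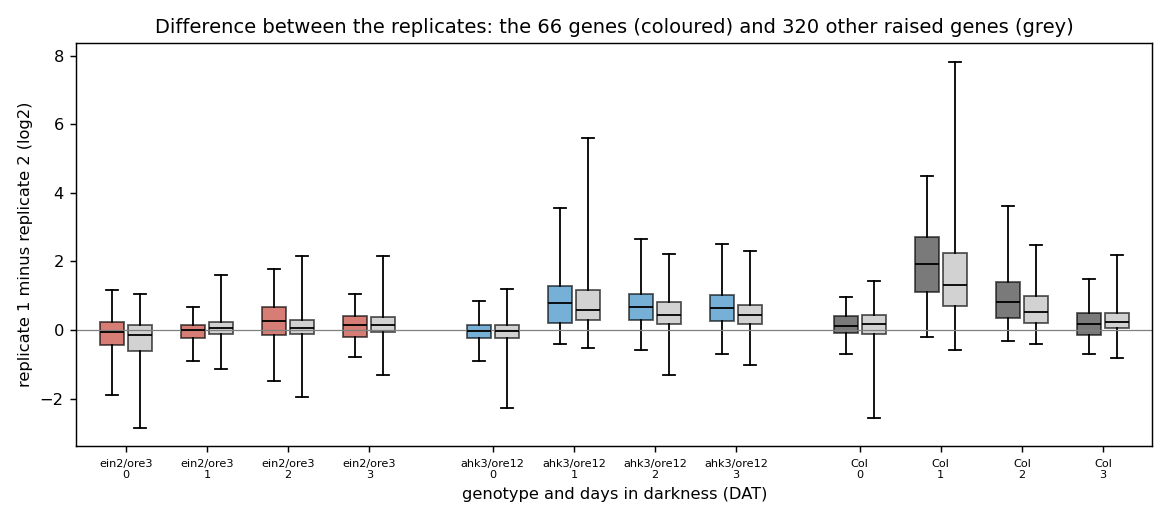
Replicate 1 minus replicate 2 in log2 expression, for the 66 genes (coloured boxes) and the 320 other raised genes (grey boxes), by genotype and days in darkness; boxes span the quartiles with the median as a line and whiskers the full range. The box of the 66 genes in Col at 1 DAT is centred on 1.94, and those of ein2/ore3 lie near 0.

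The time courses of the 66 genes were far apart in the 3 genotypes. Median log2 expression in ein2/ore3 was 6.76, 7.11, 7.02 and 7.08 at 0, 1, 2 and 3 DAT. In ahk3/ore12 it was 6.67, 8.33, 9.03 and 9.77, and in Col it was 6.62, 9.25, 10.27 and 11.20. The genes began at like levels, since the ein2/ore3 minus Col difference at 0 DAT had a median of 0.09. By 3 DAT the change had a median of 0.49 in ein2/ore3 (range -0.36 to 0.99), 2.82 in ahk3/ore12 (2.01 to 6.01) and 4.30 in Col (3.09 to 7.39). These changes are what the genes were chosen by.

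**Figure D2:**
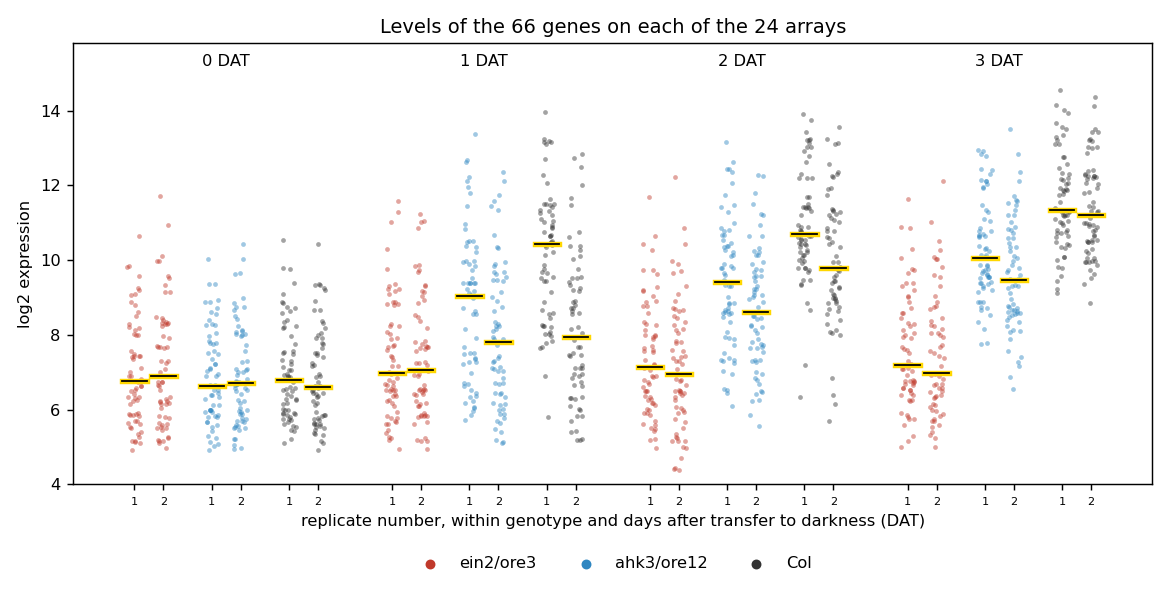
Log2 expression of the 66 genes on each of the 24 arrays, grouped by days in darkness, with ein2/ore3 left of ahk3/ore12 and Col; each point is a gene and each bar the median of an array. Medians in ein2/ore3 stay near 7 while those of Col replicate 1 and replicate 2 are well apart at 1 DAT and close at 3 DAT.

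The course of the change is described here without a test, since it is counted from the 0 DAT arrays, and its shares from the 3 DAT arrays, by which the genes were chosen. In ein2/ore3 5 of 66 genes had gained at least 1 by 1 DAT and 3 by 2 DAT. In ahk3/ore12 there were 39 such genes at 1 DAT and 54 at 2 DAT. In Col there were 62 and then 65, and the median gene had covered 47.5% of its eventual change at 1 DAT and 80.4% at 2 DAT. The ahk3/ore12 change at 3 DAT was a median 67.2% of the Col change, from 39.0% in AT3G05400 to 113.9% in ARGOS. Among the other 320 genes the median shares were 60.3% in ein2/ore3 and 81.0% in ahk3/ore12. Starting signals were often faint: 33 of the 66 genes lay among the dimmest 25% of genes on both ein2/ore3 arrays at 0 DAT, 36 in ahk3/ore12 and 33 in Col. At 3 DAT 26 were still there in ein2/ore3, and none was in the other genotypes. Differences against such faint levels are given as measured.

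**Figure D3:**
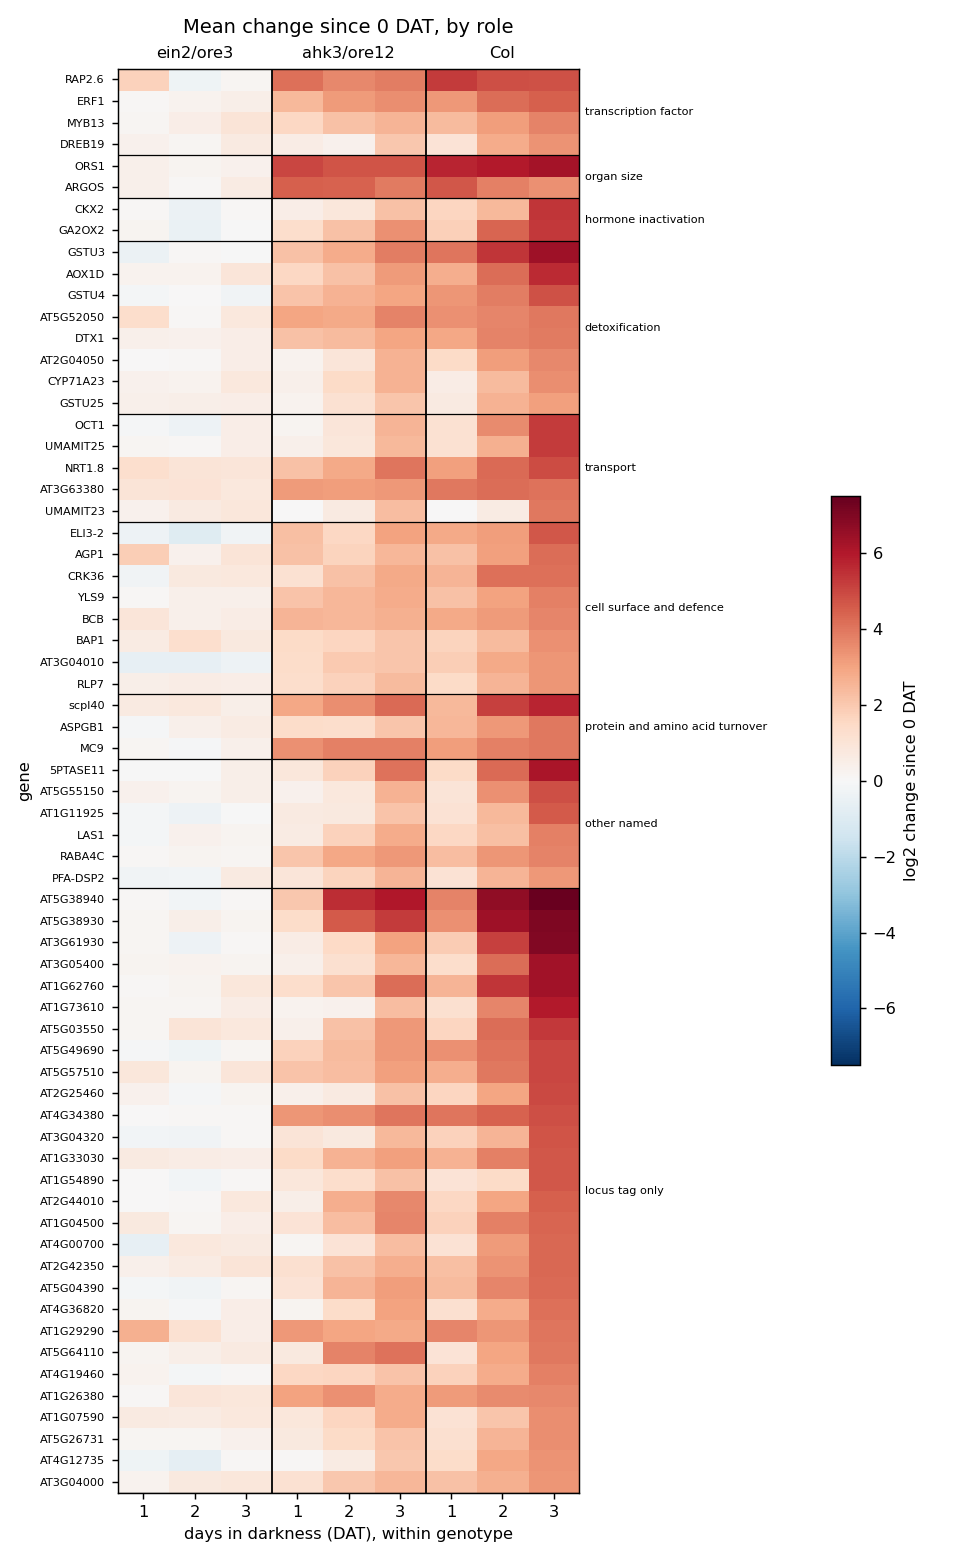
Mean change in log2 expression since 0 DAT for each of the 66 genes (rows, grouped by role) at 1, 2 and 3 DAT in ein2/ore3, ahk3/ore12 and Col; red is a rise and blue a fall. The ein2/ore3 columns stay pale apart from a few genes at 1 DAT such as AT1G29290, AGP1 and RAP2.6.

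Whether the 66 genes were lower in ein2/ore3 was tested on the 12 arrays of 1 and 2 DAT. At 2 DAT 47 of the 66 were lower in ein2/ore3 than in Col at an adjusted p under 0.05 (limma), and 0 were higher, while 5.28% of all 32627 genes were called lower and 8.19% higher. The median difference over the 66 was -3.0, against -0.17 over all genes. At 1 DAT 16 were lower and 0 higher, where 2.3% of all genes were called lower and 7.33% higher. The replicate block gave 25 lower. The median difference at 1 DAT was -1.57. All 16 were also among the 47, and 19 genes passed at neither time. Both ein2/ore3 arrays lay below both Col arrays in 63 of 66 genes at 2 DAT, against 35.1% of all genes, and in 48 at 1 DAT, against 19.2%. Of the other 320 raised genes 130 were called lower in ein2/ore3 at 2 DAT and 83 at 1 DAT, with median differences of -1.64 and -1.15. Arrays of ein2/ore3 and Col were likewise apart in 287 of those 320 genes at 2 DAT and in 194 at 1 DAT.

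The count at 2 DAT fell to 19 without Col replicate 1 of that day and to 25 without ein2/ore3 replicate 2. At 1 DAT it was 9 without Col replicate 1 and 38 without Col replicate 2, and 8 or 9 without either ein2/ore3 replicate of that day. Within replicate 1 the median difference at 1 DAT was -2.65 and within replicate 2 it was -0.51, and at 2 DAT the medians were -3.32 and -2.78. Calls at 2 DAT held for 19 genes whichever of the 12 arrays was left out: ARGOS, AT1G04500, AT1G11925, AT1G62760, AT2G04050, AT3G04010, AT4G12735, AT4G34380, AT5G04390, AT5G52050, AT5G55150, CYP71A23, DREB19, ERF1, GSTU25, MC9, NRT1.8, ORS1 and RAP2.6. At 1 DAT the same was true of 8: ARGOS, AT3G04010, AT4G34380, AT5G52050, ERF1, MC9, ORS1 and RAP2.6.

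Of the 66 genes 38 were given a role, and 4 of these were transcription factors. The other 28 were not sorted by role, so each count of a role is a minimum. All 4 factors were called lower in ein2/ore3 than in Col at 2 DAT. ERF1 (AT3G23240), the direct target of EIN3 that activates ethylene-dependent defence genes, stayed low in ein2/ore3. In ein2/ore3, ERF1 stood at 6.35 and 6.18 (0 DAT), 6.18 and 6.53 (1 DAT), 6.62 and 6.45 (2 DAT) and 6.70 and 6.69 (3 DAT). In ahk3/ore12, ERF1 stood at 6.64 and 6.54 (0 DAT), 9.39 and 8.65 (1 DAT), 9.84 and 9.68 (2 DAT) and 10.05 and 10.07 (3 DAT). In Col, ERF1 stood at 6.55 and 6.22 (0 DAT), 10.36 and 8.92 (1 DAT), 10.55 and 10.63 (2 DAT) and 10.76 and 10.92 (3 DAT). The ein2/ore3 arrays of 1, 2 and 3 DAT all lay below every dark-treated array of the other genotypes. The ein2/ore3 minus Col difference was -3.29 ± 0.42 (SE, adjusted p = 0.00262) at 1 DAT and -4.06 ± 0.42 (SE, adjusted p = 0.000646) at 2 DAT, with both ein2/ore3 arrays among the dimmest 25% of genes. Against ahk3/ore12 it was -3.23 ± 0.42 (SE, adjusted p = 0.00484) at 2 DAT, whereas ahk3/ore12 minus Col was -0.83 ± 0.42 (SE, adjusted p = 0.335).

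RAP2.6 (AT1G43160), an AP2/ERF factor that responds to jasmonate and stress, had the only brief rise among the factors. In ein2/ore3, RAP2.6 stood at 5.71 and 5.77 (0 DAT), 7.33 and 7.62 (1 DAT), 5.60 and 5.28 (2 DAT) and 5.76 and 5.97 (3 DAT). In ahk3/ore12, RAP2.6 stood at 5.66 and 5.70 (0 DAT), 9.97 and 9.69 (1 DAT), 9.66 and 8.87 (2 DAT) and 9.67 and 9.31 (3 DAT). In Col, RAP2.6 stood at 5.76 and 5.62 (0 DAT), 11.47 and 10.37 (1 DAT), 10.61 and 10.49 (2 DAT) and 10.40 and 10.53 (3 DAT). Both ein2/ore3 arrays of 1 DAT stood above those of every other ein2/ore3 day, and the step down was called, with a 2 minus 1 DAT difference of -2.04 ± 0.37 (SE, adjusted p = 0.0257). That call was lost without 7 of the 12 arrays taken singly, with an adjusted p of up to 0.168 without ein2/ore3 replicate 1 of 1 DAT. At 2 DAT the ein2/ore3 minus Col difference was -5.11 ± 0.37 (SE, adjusted p = 0.000154), with both ein2/ore3 arrays among the dimmest 25% of genes. The ahk3/ore12 minus Col difference at 2 DAT was -1.29 ± 0.37 (SE, adjusted p = 0.0764), which passed only with the replicate block (adjusted p = 0.0376).

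DREB19 (AT2G38340), of the DREB branch of the AP2/ERF family, rose late. At 1 DAT its arrays read 8.88 and 9.17 for ein2/ore3, 9.06 and 9.47 for ahk3/ore12 and 9.56 and 9.76 for Col, with Col highest by a small margin. At 2 DAT they read 9.20 and 8.51 for ein2/ore3, 9.32 and 8.74 for ahk3/ore12 and 11.51 and 11.28 for Col. The Col arrays alone were raised then, and both mutants were called lower, with differences of -2.54 ± 0.28 (SE, adjusted p = 0.000854) for ein2/ore3 and -2.37 ± 0.28 (SE, adjusted p = 0.00286) for ahk3/ore12. At 3 DAT the arrays read 9.20 and 9.54 for ein2/ore3, 10.63 and 10.90 for ahk3/ore12 and 11.76 and 12.21 for Col, with ahk3/ore12 raised by then as well. MYB13 (AT1G06180), a MYB factor, read 7.64 and 7.60 for ein2/ore3, 9.78 and 9.31 for ahk3/ore12 and 10.81 and 9.95 for Col at 2 DAT. Its ein2/ore3 minus Col difference was -2.76 ± 0.60 (SE, adjusted p = 0.019). With an ein2/ore3 change of 0.99, MYB13 was also the gene nearest to the limit on that change, and AT2G05910 was the nearest outside it at 1.005.

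**Figure D4:**
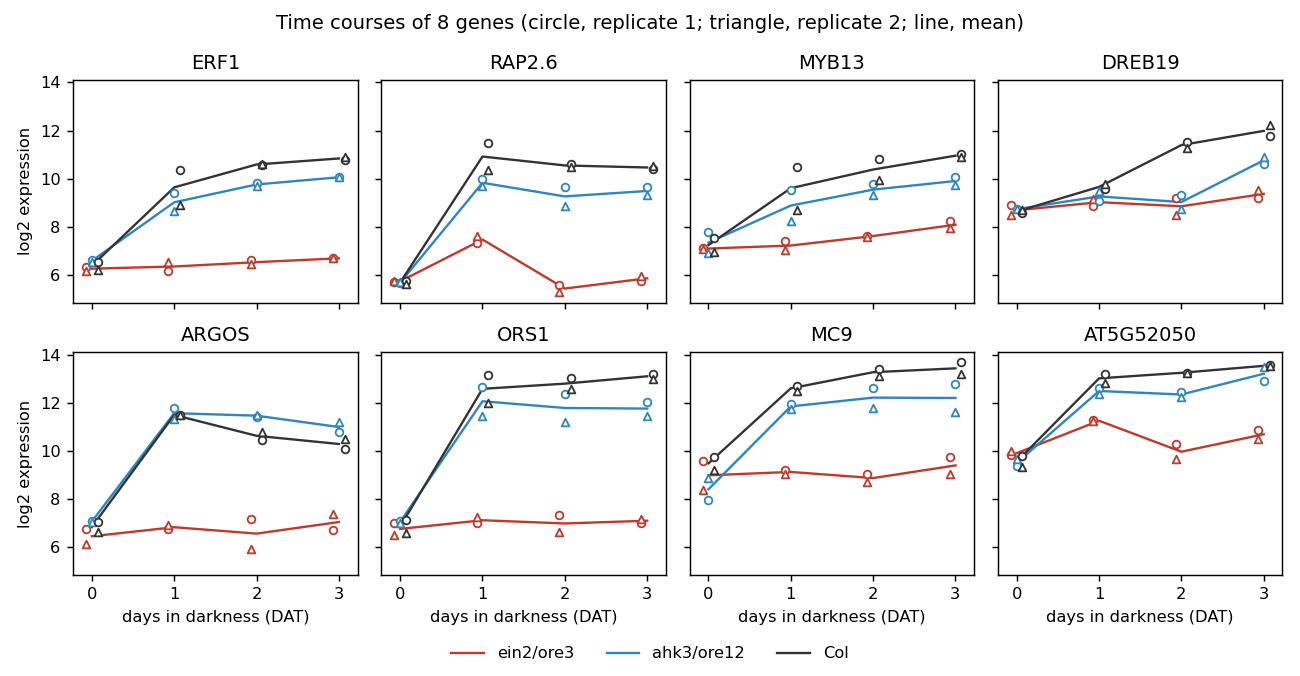
Log2 expression of ERF1, RAP2.6, MYB13, DREB19, ARGOS, ORS1, MC9 and AT5G52050 against days in darkness; lines are means of 2 replicates, circles replicate 1 and triangles replicate 2. RAP2.6 in ein2/ore3 peaks at 1 DAT at 7.33 and 7.62, and ARGOS in ahk3/ore12 stays above Col at 2 and 3 DAT.

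A pair of genes of organ growth showed the widest early gap. ARGOS (AT3G59900), which promotes organ growth and dampens ethylene sensitivity when overexpressed, was at its peak within a day. In ein2/ore3, ARGOS read 6.77 and 6.15 (0 DAT), 6.75 and 6.92 (1 DAT), 7.19 and 5.95 (2 DAT) and 6.72 and 7.38 (3 DAT). In ahk3/ore12, ARGOS read 7.09 and 7.05 (0 DAT), 11.80 and 11.34 (1 DAT), 11.42 and 11.51 (2 DAT) and 10.77 and 11.22 (3 DAT). In Col, ARGOS read 7.06 and 6.63 (0 DAT), 11.51 and 11.48 (1 DAT), 10.47 and 10.79 (2 DAT) and 10.09 and 10.49 (3 DAT). The ahk3/ore12 and Col arrays overlapped at 1 DAT, and the ein2/ore3 arrays lay far below both. The ein2/ore3 minus Col difference was -4.66 ± 0.35 (SE, adjusted p = 0.000291) at 1 DAT and -4.06 ± 0.35 (SE, adjusted p = 0.000304) at 2 DAT. ARGOS was the only member whose ahk3/ore12 level exceeded Col at 3 DAT, and 1 of 2 genes, with AT5G64110, whose ahk3/ore12 change was at least that of Col. At 2 DAT the ahk3/ore12 minus Col difference was 0.84 ± 0.35 (SE, adjusted p = 0.225).

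ORS1 (AT2G41230, ORGAN SIZE RELATED 1, a relative of ARGOS and not the NAC factor of that name) behaved alike. In ein2/ore3, ORS1 read 7.01 and 6.52 (0 DAT), 7.0 and 7.25 (1 DAT), 7.33 and 6.65 (2 DAT) and 7.03 and 7.18 (3 DAT). In ahk3/ore12, ORS1 read 7.11 and 7.0 (0 DAT), 12.67 and 11.46 (1 DAT), 12.36 and 11.21 (2 DAT) and 12.05 and 11.47 (3 DAT). In Col, ORS1 read 7.13 and 6.59 (0 DAT), 13.16 and 12.00 (1 DAT), 13.03 and 12.56 (2 DAT) and 13.21 and 12.99 (3 DAT). The 3 mean levels of ORS1 in dark-treated ahk3/ore12 all lay below those in Col, though single arrays overlapped at 1 DAT. ORS1 differed between ein2/ore3 and Col by -5.46 ± 0.55 (SE, adjusted p = 0.000959) at 1 DAT and -5.81 ± 0.55 (SE, adjusted p = 0.000445) at 2 DAT. The averaged difference over both days, -5.63, was the largest of the 66. Against ahk3/ore12 the difference was -4.94 ± 0.55 (SE, adjusted p = 0.00194) at 1 DAT.

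Hormone inactivation was represented by 2 genes with late Col peaks. CKX2 (AT2G19500) encodes a cytokinin oxidase, which breaks cytokinin down. In ein2/ore3, CKX2 read 5.52 and 5.65 (0 DAT), 5.71 and 5.63 (1 DAT), 5.63 and 4.71 (2 DAT) and 5.58 and 5.74 (3 DAT). In ahk3/ore12, CKX2 read 5.58 and 5.77 (0 DAT), 6.64 and 5.65 (1 DAT), 6.55 and 6.47 (2 DAT) and 8.54 and 7.17 (3 DAT). In Col, CKX2 read 5.57 and 5.52 (0 DAT), 8.60 and 5.70 (1 DAT), 9.78 and 6.16 (2 DAT) and 11.32 and 10.48 (3 DAT). At 1 and 2 DAT replicate 1 of Col stood far above every other array, and the Col replicates lay close together at 3 DAT. The ein2/ore3 minus Col difference at 2 DAT was -2.80 ± 1.19 (SE, adjusted p = 0.168), and it also missed the threshold with the block (adjusted p = 0.0687). GA2OX2 (AT1G30040), a gibberellin 2-oxidase that inactivates gibberellin, read 8.78 and 8.45 for ein2/ore3, averaged 10.37 for ahk3/ore12 and read 12.64 and 12.26 for Col at 2 DAT. Its difference there was -3.84 ± 0.76 (SE, adjusted p = 0.0122). At 0 DAT GA2OX2 had already been 1.03 higher in ein2/ore3 than in Col, with 9.10 and 9.15 in ein2/ore3 against 8.40 and 7.79 in Col.

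Detoxification genes numbered 8, and 6 of them were called lower in ein2/ore3 than in Col at 2 DAT, 3 at 1 DAT. Glutathione transferases of the tau class, which conjugate glutathione to toxic and stress-derived compounds, gave 3 members. The annotation words glutathione S-transferase marked 45 of 31993 annotated genes (0.141%). GSTU3 (AT2G29470) and GSTU4 (AT2G29460) are direct neighbours. In ein2/ore3, GSTU3 read 6.63 and 7.24 (0 DAT), 6.53 and 6.43 (1 DAT), 6.79 and 7.30 (2 DAT) and 7.16 and 6.65 (3 DAT). In ahk3/ore12, GSTU3 read 7.04 and 6.73 (0 DAT), 10.83 and 7.28 (1 DAT), 10.26 and 9.02 (2 DAT) and 11.33 and 10.12 (3 DAT). In Col, GSTU3 read 7.05 and 6.61 (0 DAT), 13.10 and 8.60 (1 DAT), 13.21 and 11.23 (2 DAT) and 13.52 and 12.88 (3 DAT). The Col replicates of GSTU3 lay far apart at 1 DAT, and the lower of them was still above every ein2/ore3 array. With that spread the ein2/ore3 minus Col difference for GSTU3 was -5.18 ± 1.53 (SE, adjusted p = 0.061) at 2 DAT, and adjusted p = 0.0202 with the replicate block. GSTU4 read 6.03 and 6.76 for ein2/ore3, 8.84 and 8.13 for ahk3/ore12 and 10.35 and 9.38 for Col at 2 DAT, a difference of -3.47 ± 0.88 (SE, adjusted p = 0.0349). GSTU25 (AT1G17180), which had the smallest Col change of all members, was steadier, with 7.97 and 8.26 for ein2/ore3, 8.63 and 8.43 for ahk3/ore12 and 9.79 and 9.81 for Col at 2 DAT. Its difference was -1.69 ± 0.19 (SE, adjusted p = 0.000832), and -1.27 ± 0.19 (SE, adjusted p = 0.00618) for ahk3/ore12 minus Col.

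MATE efflux carriers, which export organic compounds from the cytosol, formed a second set of 3: DTX1 (AT2G04040), its direct neighbour AT2G04050 and AT5G52050 (DTX50). In ein2/ore3, AT5G52050 read 9.83 and 9.99 (0 DAT), 11.28 and 11.23 (1 DAT), 10.28 and 9.66 (2 DAT) and 10.89 and 10.50 (3 DAT). In ahk3/ore12, AT5G52050 read 9.36 and 9.65 (0 DAT), 12.63 and 12.35 (1 DAT), 12.44 and 12.25 (2 DAT) and 12.91 and 13.50 (3 DAT). In Col, AT5G52050 read 9.79 and 9.33 (0 DAT), 13.19 and 12.84 (1 DAT), 13.24 and 13.25 (2 DAT) and 13.55 and 13.52 (3 DAT). AT5G52050 thus rose for a day in ein2/ore3 and was lower again at 2 DAT, a step of -1.29 ± 0.22 (SE, adjusted p = 0.0204). That call, too, was lost without ein2/ore3 replicate 1 or 2 of 1 DAT or replicate 2 of 2 DAT. Its ein2/ore3 minus Col difference was -1.76 ± 0.22 (SE, adjusted p = 0.00213) at 1 DAT and -3.28 ± 0.22 (SE, adjusted p = 0.000107) at 2 DAT. For DTX1 the 2 DAT arrays read 7.89 and 8.04 for ein2/ore3, 10.81 and 9.77 for ahk3/ore12 and 11.40 and 11.21 for Col, and for AT2G04050 they read 9.29 and 9.72 for ein2/ore3, 10.85 and 10.32 for ahk3/ore12 and 12.21 and 12.31 for Col. Both neighbours were called lower, with -3.34 ± 0.60 (SE, adjusted p = 0.00811) for DTX1 and -2.76 ± 0.27 (SE, adjusted p = 0.000477) for AT2G04050. In ahk3/ore12 AT2G04050 was also below Col at 2 DAT, with -1.68 ± 0.27 (SE, adjusted p = 0.00859). The remaining detoxification genes were CYP71A23, a cytochrome P450, and AOX1D, a mitochondrial alternative oxidase. CYP71A23 differed by -1.94 ± 0.24 (SE, adjusted p = 0.00146) at 2 DAT. AOX1D differed by -3.76 ± 1.2 (SE, adjusted p = 0.0786), with adjusted p = 0.0344 under the block.

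Among 5 transport genes 4 were called lower in ein2/ore3 at 2 DAT. NRT1.8 (AT4G21680) removes nitrate from the xylem sap. In ein2/ore3, NRT1.8 read 8.21 and 8.35 (0 DAT), 9.17 and 9.88 (1 DAT), 9.18 and 9.32 (2 DAT) and 9.04 and 9.32 (3 DAT). In ahk3/ore12, NRT1.8 read 8.27 and 8.23 (0 DAT), 10.52 and 10.32 (1 DAT), 11.28 and 10.94 (2 DAT) and 12.41 and 12.11 (3 DAT). In Col, NRT1.8 read 7.97 and 8.04 (0 DAT), 11.51 and 10.63 (1 DAT), 12.19 and 12.37 (2 DAT) and 12.77 and 13.04 (3 DAT). The ein2/ore3 arrays of 1 to 3 DAT all lay above those of 0 DAT, and below every dark-treated array of the other genotypes. The ein2/ore3 minus Col difference of NRT1.8 was -1.55 ± 0.31 (SE, adjusted p = 0.018) at 1 DAT and -3.03 ± 0.31 (SE, adjusted p = 0.000634) at 2 DAT. AT3G63380, named ACA12 as a calcium pump of the plasma membrane, differed by -2.78 ± 0.54 (SE, adjusted p = 0.0118). OCT1 (AT1G73220), an organic cation and carnitine transporter, read 5.92 and 4.98 for ein2/ore3, 6.95 and 6.24 for ahk3/ore12 and 10.05 and 8.76 for Col at 2 DAT, and both mutants were called lower than Col, with ein2/ore3 at -3.96 ± 0.67 (SE, adjusted p = 0.00594) and ahk3/ore12 at -2.81 ± 0.67 (SE, adjusted p = 0.0394). Amino acid exporters of the UMAMIT family gave 2 members, and the word UMAMIT marked 47 of 31993 annotated genes (0.147%). UMAMIT25 (AT1G09380) read 6.90 and 6.49 for ein2/ore3, 7.24 and 7.81 for ahk3/ore12 and 10.22 and 8.08 for Col at 2 DAT, a difference of -2.46 ± 0.66 (SE, adjusted p = 0.0425).

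UMAMIT23 (AT1G68170) was the exception to the pattern at 1 and 2 DAT. In ein2/ore3, UMAMIT23 read 5.89 and 5.63 (0 DAT), 6.10 and 6.11 (1 DAT), 6.34 and 6.50 (2 DAT) and 7.09 and 6.15 (3 DAT). In ahk3/ore12, UMAMIT23 read 5.95 and 5.94 (0 DAT), 5.97 and 6.0 (1 DAT), 6.52 and 6.68 (2 DAT) and 8.15 and 8.35 (3 DAT). In Col, UMAMIT23 read 5.75 and 5.77 (0 DAT), 5.80 and 5.83 (1 DAT), 6.35 and 6.39 (2 DAT) and 9.45 and 9.94 (3 DAT). All arrays lay between 5.63 and 6.68 through 2 DAT, and Col rose sharply only on the last day. At 1 DAT the ein2/ore3 arrays were the highest, with a difference from Col of 0.29 ± 0.11 (SE, adjusted p = 0.17). At 2 DAT the ein2/ore3 minus Col difference was 0.05 ± 0.11 (SE, adjusted p = 0.762), the only positive value among the 66. The gap that placed the gene in the set was present at 3 DAT alone.

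Genes of the cell surface and of defence numbered 8, with 4 called lower in ein2/ore3 at 2 DAT: AT3G04010, BCB, AGP1 and YLS9. AT3G04010 encodes a family 17 glycosyl hydrolase, the family of plant beta-1,3-glucanases. In ein2/ore3, AT3G04010 read 7.99 and 8.23 (0 DAT), 7.71 and 7.27 (1 DAT), 7.55 and 7.43 (2 DAT) and 7.99 and 7.52 (3 DAT). In ahk3/ore12, AT3G04010 read 8.30 and 8.74 (0 DAT), 9.94 and 9.85 (1 DAT), 10.37 and 10.64 (2 DAT) and 10.64 and 10.60 (3 DAT). In Col, AT3G04010 read 8.74 and 8.32 (0 DAT), 10.64 and 10.11 (1 DAT), 11.41 and 11.38 (2 DAT) and 11.91 and 11.81 (3 DAT). Its mean in ein2/ore3 was lower at each dark time than at 0 DAT, and its change at 3 DAT, -0.36, was the lowest of the 66. Its difference from Col was -2.89 ± 0.21 (SE, adjusted p = 0.000238) at 1 DAT and -3.91 ± 0.21 (SE, adjusted p = 5.32e-05) at 2 DAT, with -3.02 ± 0.21 (SE, adjusted p = 0.000232) against ahk3/ore12. Its direct neighbour AT3G04000 is also among the 66, with a small Col change (3.29), and its 2 DAT difference was -1.80 ± 0.65 (SE, adjusted p = 0.112), which passed with the block (adjusted p = 0.043).

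BCB (AT5G20230), a blue copper protein also known as SAG14, read 10.64 and 10.87 for ein2/ore3, 13.15 and 12.29 for ahk3/ore12 and 13.75 and 13.55 for Col at 2 DAT, a difference of -2.90 ± 0.51 (SE, adjusted p = 0.00745). AGP1 (AT5G64310), an arabinogalactan protein of the cell wall, rose for a day in ein2/ore3, with 9.08 and 9.34 at 0 DAT, 11.03 and 11.03 at 1 DAT and 10.42 and 8.64 at 2 DAT. The last pair differed widely between its arrays. AGP1 differed from Col by -0.18 ± 0.51 (SE, adjusted p = 0.89) at 1 DAT and -2.58 ± 0.51 (SE, adjusted p = 0.0125) at 2 DAT. YLS9 (AT2G35980), a membrane protein first found as a leaf senescence gene, differed by -2.44 ± 0.62 (SE, adjusted p = 0.0344) at 2 DAT. The other 4 were not called at 2 DAT: ELI3-2, an aromatic alcohol dehydrogenase induced by elicitors (-3.35 ± 1.01 SE, adjusted p = 0.0653), BAP1, a calcium-binding suppressor of defence (-0.91 ± 1.24 SE, adjusted p = 0.618), and the receptor-type proteins CRK36 (-1.88 ± 0.65 SE, adjusted p = 0.0994) and RLP7 (-1.53 ± 0.73 SE, adjusted p = 0.208). With the block ELI3-2 passed (adjusted p = 0.0295). CRK36 began higher in ein2/ore3, with 8.79 and 9.97 in ein2/ore3 against 8.19 and 7.51 in Col at 0 DAT.

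Protein and amino acid turnover was represented by MC9, scpl40 and ASPGB1. MC9 (AT5G04200) is a metacaspase, a cysteine protease linked to cell death in the xylem. In ein2/ore3, MC9 read 9.58 and 8.40 (0 DAT), 9.22 and 9.04 (1 DAT), 9.05 and 8.70 (2 DAT) and 9.76 and 9.04 (3 DAT). In ahk3/ore12, MC9 read 7.96 and 8.86 (0 DAT), 11.95 and 11.75 (1 DAT), 12.63 and 11.80 (2 DAT) and 12.78 and 11.62 (3 DAT). In Col, MC9 read 9.76 and 9.21 (0 DAT), 12.71 and 12.49 (1 DAT), 13.42 and 13.12 (2 DAT) and 13.68 and 13.18 (3 DAT). Every dark-treated ahk3/ore12 and Col array of MC9 lay above every ein2/ore3 array. MC9 was 11.1-fold lower in ein2/ore3 than in Col at 1 DAT (-3.47 ± 0.27 SE, adjusted p = 0.000304) and 21-fold lower at 2 DAT (-4.40 ± 0.27 SE, adjusted p = 7.86e-05). In ahk3/ore12 it was below Col at 2 DAT, with a difference of -1.06 ± 0.27 (SE, adjusted p = 0.0485). The carboxypeptidase gene scpl40 (AT3G63470) differed by -4.18 ± 0.97 (SE, adjusted p = 0.0239) at 2 DAT. ASPGB1 (AT3G16150), an asparaginase that releases ammonium from asparagine, differed by -2.62 ± 0.85 (SE, adjusted p = 0.0823) and passed with the block (adjusted p = 0.0427).

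Of 6 further named genes 5 were called lower in ein2/ore3 at 2 DAT. The inositol polyphosphate 5-phosphatase gene 5PTASE11 (AT1G47510) read 5.19 and 5.17 for ein2/ore3, 7.91 and 6.26 for ahk3/ore12 and 10.93 and 9.73 for Col at 2 DAT. Its difference, -5.15 ± 1.27 (SE, adjusted p = 0.031), stood among the widest of the 66. AT5G55150, a protein of unknown function with a DUF295 domain, read 6.51 and 6.35 for ein2/ore3, 7.53 and 6.50 for ahk3/ore12 and 10.42 and 9.26 for Col. Here ahk3/ore12 lay nearer to ein2/ore3 than to Col, with -3.41 ± 0.46 (SE, adjusted p = 0.0022) for ein2/ore3 minus Col and -2.83 ± 0.46 (SE, adjusted p = 0.00963) for ahk3/ore12 minus Col. PFA-DSP2, a dual-specificity phosphatase, differed by -2.55 ± 0.54 (SE, adjusted p = 0.0168), RABA4C, a small GTPase of membrane traffic, by -2.50 ± 0.57 (SE, adjusted p = 0.023), and AT1G11925, of the Stig1 family, by -2.78 ± 0.39 (SE, adjusted p = 0.00246). LAS1, a lanosterol synthase, was not called (-1.84 ± 1.00 SE, adjusted p = 0.254).

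The other 28 genes are described here by locus tag alone, and 19 of them were called lower in ein2/ore3 at 2 DAT, 3 at 1 DAT. The largest Col changes of the whole set were in this group. AT5G38940 and AT5G38930 are direct neighbours, and near-identical probes between such pairs were not examined. In ein2/ore3, AT5G38940 read 5.11 and 5.16 (0 DAT), 5.27 and 5.15 (1 DAT), 5.49 and 4.40 (2 DAT) and 5.15 and 5.33 (3 DAT). In ahk3/ore12, AT5G38940 read 5.25 and 5.22 (0 DAT), 9.03 and 5.48 (1 DAT), 12.07 and 9.44 (2 DAT) and 12.13 and 10.35 (3 DAT). In Col, AT5G38940 read 5.55 and 5.35 (0 DAT), 11.20 and 7.12 (1 DAT), 12.91 and 11.31 (2 DAT) and 13.29 and 12.39 (3 DAT). Its 8 ein2/ore3 arrays stayed between 4.40 and 5.49, whereas the replicates of ahk3/ore12 and of Col differed by several units at 1 DAT. For AT5G38930 the 2 DAT arrays read 6.17 and 5.92 for ein2/ore3, 11.74 and 9.07 for ahk3/ore12 and 12.78 and 11.12 for Col. The ein2/ore3 minus Col difference at 2 DAT was -7.17 ± 1.56 (SE, adjusted p = 0.0183) for AT5G38940 and -5.91 ± 1.46 (SE, adjusted p = 0.0318) for AT5G38930. At 1 DAT AT5G38940 differed by -3.95 ± 1.56 (SE, adjusted p = 0.188), and with the block adjusted p = 0.0285.

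AT3G61930 and AT3G05400 had large Col changes of which ahk3/ore12 reached a small part. AT3G61930 changed by 0.08 in ein2/ore3, 3.03 in ahk3/ore12 and 6.92 in Col, and AT3G05400 by 0.19 in ein2/ore3, 2.47 in ahk3/ore12 and 6.32 in Col. At 2 DAT AT3G05400 read 6.18 and 6.39 for ein2/ore3, 7.04 and 7.33 for ahk3/ore12 and 10.76 and 9.60 for Col. Both mutants were called lower than Col there, with -3.90 ± 0.75 (SE, adjusted p = 0.0105) for ein2/ore3 and -3.0 ± 0.75 (SE, adjusted p = 0.0467) for ahk3/ore12. AT3G61930 differed by -5.79 ± 1.23 (SE, adjusted p = 0.0167) in ein2/ore3, and its ahk3/ore12 minus Col difference was -4.03 ± 1.23 (SE, adjusted p = 0.093) (adjusted p = 0.0251 with the block). AT1G62760 read 8.27 and 7.85 for ein2/ore3, 10.67 and 9.57 for ahk3/ore12 and 13.91 and 13.14 for Col at 2 DAT, with differences from Col of -5.47 ± 0.79 (SE, adjusted p = 0.00296) in ein2/ore3 and -3.41 ± 0.79 (SE, adjusted p = 0.0363) in ahk3/ore12. AT4G34380 was early and even, with 6.64 and 6.95 for ein2/ore3, 9.90 and 9.63 for ahk3/ore12 and 10.75 and 10.02 for Col at 1 DAT and an ein2/ore3 minus Col difference of -3.59 ± 0.28 (SE, adjusted p = 0.000346).

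A few of these genes departed from the flat ein2/ore3 course. AT1G29290 read 6.23 and 6.75 (0 DAT), 9.32 and 8.94 (1 DAT), 8.00 and 7.22 (2 DAT) and 7.09 and 6.92 (3 DAT) in ein2/ore3, the largest rise at 1 DAT of any member in that genotype. In Col it read 6.17 and 6.45 (0 DAT), 11.01 and 8.88 (1 DAT), 10.27 and 8.99 (2 DAT) and 10.63 and 9.97 (3 DAT). At 1 DAT the ein2/ore3 arrays lay between the Col arrays, and the difference was -0.82 ± 0.76 (SE, adjusted p = 0.602). At 2 DAT it was -2.02 ± 0.76 (SE, adjusted p = 0.126), and it passed with the block (adjusted p = 0.00908). AT4G00700 began higher in ein2/ore3, at 10.65 and 11.71 against 9.40 and 9.37 in Col at 0 DAT. At 3 DAT it read 11.64 and 12.12 for ein2/ore3, 11.94 and 11.22 for ahk3/ore12 and 13.95 and 13.44 for Col, the only member whose mean in ein2/ore3 was above that in ahk3/ore12. Its ein2/ore3 minus Col difference at 2 DAT was -0.61 ± 0.62 (SE, adjusted p = 0.506). AT1G26380 also began higher by 1.26, and with CRK36 and GA2OX2 these were the 4 members at least 1 above Col in ein2/ore3 at 0 DAT. AT5G64110 read 6.75 and 6.51 for ein2/ore3, 10.11 and 9.57 for ahk3/ore12 and 9.92 and 8.70 for Col at 2 DAT, with an ein2/ore3 minus ahk3/ore12 difference of -3.21 ± 0.67 (SE, adjusted p = 0.0288). Just outside the set lay AT4G35380, whose lower Col change was 2.99 where AT1G07590 had 3.00, and NCED2, an enzyme of abscisic acid synthesis, whose ahk3/ore12 change was 1.99 where AT4G12735 had 2.005.

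**Figure D5:**
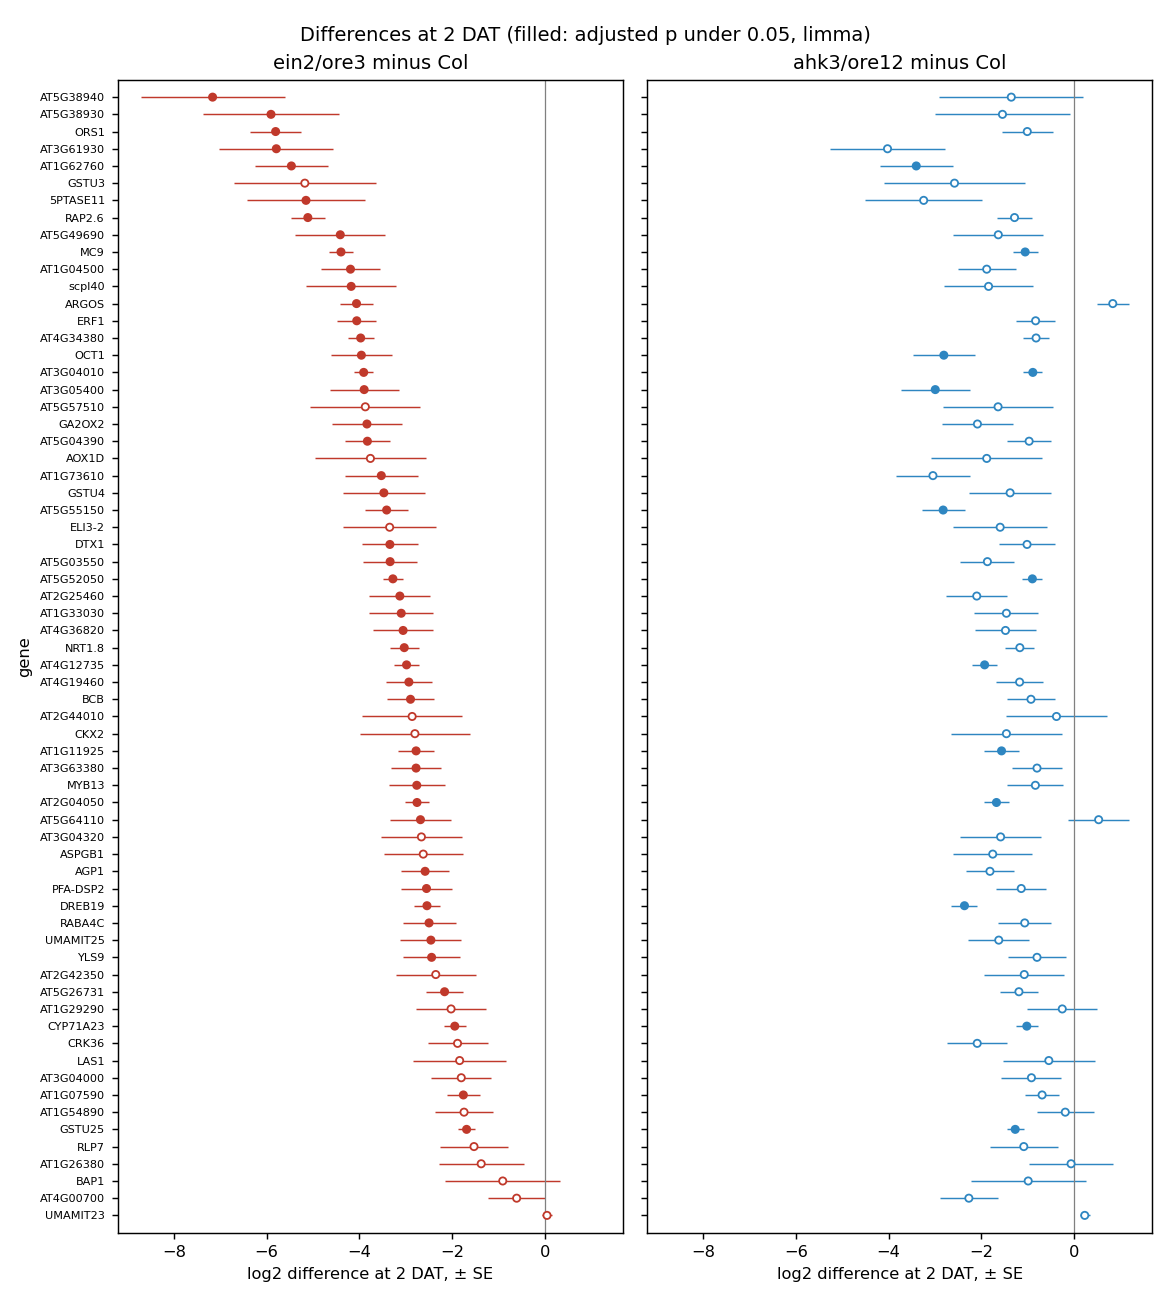
Difference from Col at 2 DAT in log2 expression for each of the 66 genes, in ein2/ore3 (left) and ahk3/ore12 (right), with bars of 1 SE; filled points passed an adjusted p under 0.05 (limma). In ein2/ore3 65 of 66 points lie below 0 and 47 are filled, and in ahk3/ore12 63 lie below 0 and 13 are filled.

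Some of the 66 genes were also lower in ahk3/ore12 than in Col. At 2 DAT 13 were called lower and 0 higher, where 1.66% of all genes were called lower and 6.35% higher, and the median difference was -1.32. Both ahk3/ore12 arrays lay below both Col arrays in 50 of 66 genes, against 33.9% of all genes. With the replicate block the count was 22. It was 1 without Col replicate 1 of 2 DAT or without ahk3/ore12 replicate 2 of 2 DAT, and 25 without either Col array of 1 DAT. All 13 were among the 47 genes lower in ein2/ore3, a comparison that shares the same Col arrays. They were AT1G62760, AT3G05400, AT5G55150, OCT1, DREB19, AT4G12735, AT2G04050, AT1G11925, GSTU25, MC9, CYP71A23, AT5G52050 and AT3G04010. At 1 DAT 0 genes were called, as against 0.0429% of all genes called lower. At an unadjusted p under 0.05 there were 7 of the 66, against 85 of the other 320 raised genes. An ordinary t-test of the same contrast, without limma's moderation of variances, also called 0. The median difference at 1 DAT was -0.64, and 0.13 without Col replicate 1. Within replicate 1 it was -1.17, and within replicate 2 it was -0.09, with 42 of 66 genes below 0. Of the other 320 raised genes 54 were called lower in ahk3/ore12 than in Col at 2 DAT and 4 higher. Their median difference was -0.745, and the arrays did not overlap in 191 of them. At 1 DAT 4 of the 320 were called lower and 0 higher.

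The mutants were compared with each other directly as well. At 2 DAT 11 genes were lower in ein2/ore3 than in ahk3/ore12 (3.51% of all genes were called lower and 2.39% higher) and 0 were higher, with a median difference of -1.64. They were ARGOS, ORS1, RAP2.6, MC9, ERF1, AT5G64110, AT4G34380, AT3G04010, AT5G04390, AT5G52050 and NRT1.8. The replicate block gave 26, and leaving out either Col array of 1 DAT gave 25. At 1 DAT 8 were lower (1.55% of all genes) and 0 higher (4.79%), with a median of -0.74, which was -1.24 within replicate 1 and -0.30 within replicate 2. In 58 of 66 genes both ein2/ore3 arrays lay below both ahk3/ore12 arrays at 2 DAT, against 32.2% of all genes, and in 44 at 1 DAT, against 32.4%. The same was true of 202 of the other 320 raised genes at 2 DAT and of 166 at 1 DAT. Of those 320 genes 45 were called lower and 7 higher at 2 DAT, with a median difference of -0.79. At 1 DAT 36 of the 320 were called lower and 7 higher, with a median of -0.55.

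Between 1 and 2 DAT 0 genes rose in ein2/ore3, against 0.821% of all genes, and RAP2.6 and AT5G52050 fell, against 2.91% of all genes that fell. The median change in ein2/ore3 was -0.03. In ahk3/ore12 0 were called to rise, against 0.34% of all genes, and 0 to fall, against 0.162%. There were 8 at an unadjusted p under 0.05, against 125 of the other 320 raised genes. The block gave 3 calls, and the t-test without moderation 1. The median in ahk3/ore12 was 0.61. In Col 9 genes rose and 0 fell (1.45% and 3.5% of all genes), with a median change of 1.18. They were AT5G03550, AT5G55150, GSTU25, CYP71A23, DREB19, AT2G04050, AT4G12735, AT3G04010 and UMAMIT23. With the block there were 17, without Col replicate 1 or 2 of 1 DAT 30 and 4, and without Col replicate 1 or 2 of 2 DAT 1 and 3. The change in ein2/ore3 minus that in Col had a median of -1.36. It passed for 0 of the 66 genes in limma, where 0.0368% of all genes passed below 0 and 0.0245% above. It passed for 19 at an unadjusted p under 0.05, against 61 of the other 320 raised genes. The t-test without moderation gave 0. Without ein2/ore3 replicate 1 of 2 DAT 6 passed.

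Other genes of the pathway were read from lists of known members. Of 12 genes of the ethylene signalling core 6 were lower in ein2/ore3 than in Col at 2 DAT and 0 higher, with a median difference of -0.39, where 5.28% of all genes were called lower and 8.19% higher. The receptors ETR2 (-4.55 ± 0.15 SE, adjusted p = 1.04e-05), ERS2 (-2.97 ± 0.14, adjusted p = 3.2e-05) and ERS1 (-1.32 ± 0.12, adjusted p = 0.00036) were lower, as were CTR1, EBF2 and EBF1. EIN2 itself differed by -0.14 ± 0.10 (adjusted p = 0.388), and EIN3 by -0.13 ± 0.10 (adjusted p = 0.395). Transcript level does not report on the ein2-44 allele, since the position of the probes relative to the lesion was not analysed here. In ahk3/ore12 0 of the 12 were lower than in Col at 2 DAT (1.66% of all genes) and RTE1 was higher (6.35%). None of the 12 was among the 66 genes, and ETR2 in Col averaged 10.24 at 0 DAT and 12.65 at 3 DAT.

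The lists that follow are read against the same 5.28% lower and 8.19% higher among all genes. Of 13 ethylene-responsive transcription factor genes 7 were lower in ein2/ore3 at 2 DAT and 2 higher, and ERF1 and RAP2.6 of the members were among the 7. ORA59, which joins ethylene and jasmonate signals, differed by -3.42 and ERF2 by -1.91, while ESE3 differed by 2.38. Among 9 defence genes that depend on ethylene and jasmonate, 3 were lower and 1 higher. PR4, encoding a hevein-like protein, differed by -3.57 ± 0.20 (adjusted p = 7.03e-05), the chitinase gene CHI-B by -3.47 ± 0.36 (adjusted p = 0.000682), and AT4G16260 by -6.22 ± 0.46 (adjusted p = 0.000162). The defensin genes PDF1.2a to PDF1.3 differed by -0.68 to -0.04 and none was called. Of 15 senescence NAC genes 9 were lower and 0 higher, with -2.25 for ORE1 and -3.54 for NAC019. Of 11 ORE1 targets and senescence markers 4 were lower, and of 7 chlorophyll breakdown genes 4 were lower. By contrast 8 of 10 abscisic acid response genes were higher in ein2/ore3 at 2 DAT and 0 lower, with a median of 2.11. Of 13 jasmonate genes 3 were higher and 1 lower. The abscisic acid, jasmonate and NAC lists held none of the 66 genes. All 7 salt and oxidative stress genes that the study itself named were lower in ein2/ore3 at both times. These were chosen on these samples and their array values are no independent evidence. The study also reported qPCR of these genes, and weaker induction of several of them in Col and ahk3/ore12 under an ethylene inhibitor. Markers of leaf cell types moved too: 4 of 5 mesophyll markers were higher in ein2/ore3 than in Col at 2 DAT (median 0.70), as were 1 of 2 phloem companion cell markers and 2 of 3 epidermis markers, while 1 of 3 guard cell markers was lower. For ahk3/ore12 minus Col at 2 DAT 1.66% of all genes were called lower and 6.35% higher. There 2 of 5 mesophyll markers (median 0.59) and 2 of 3 epidermis markers (median 0.57) were higher than in Col. None of the 2 phloem companion cell markers (median 0.70) or 3 guard cell markers (median -0.02) was called. The part of such shifts in the results was not tested.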

How the data were processed

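RNA of detached leaves was measured on 24 NimbleGen Athal_TAIR9_exp_H12 arrays, 1 colour. Per the file headers and the methods, the authors processed the scans with the RMA algorithm and deposited a linear intensity for each transcript variant. The authors then added up a gene's variants, and the deposited series table holds the log2 of that sum for 32627 genes, which the linear files gave back to within 0.00514. The number of arrays limits the precision, with 2 replicates per condition.

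The log2 values were used as deposited. Genes were selected on the arrays of 0 and 3 DAT. Group means were fitted to the 12 arrays of 1 and 2 DAT with lmFit and eBayes of limma 3.58.1 in R 4.3.3, with Benjamini-Hochberg adjustment over all 32627 genes and a threshold of 0.05, after the fitting script had been tested on simulated data. Members and gene lists were chosen with earlier results of these data known. Genes named in the text are those with the largest and smallest Col change, the largest and smallest ein2/ore3 minus Col difference, transcription factors, members of shared families, list members, direct neighbours and those nearest to a limit of the selection. Other named genes were picked after their values were seen, as examples of a role. Names and neighbours come from RefSeq annotation of TAIR10.1, and 31993 genes matched. For 5 genes the study's own annotation gave the role. Alternatives were the summed intensities, median centring, quantile normalization, leaving out the dimmest 25% of genes, all 24 arrays and the slide as a block. Further ones were a t-test of each contrast without moderation, a threshold of 0.01, other limits of the selection and leaving out each array. That t-test is not the two-way ANOVA of the study's methods. Promoter and protein sequences were not analysed here.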

Additional observations from a re-analysis of the deposited data

How the results depend on the processing

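The set of 66 genes was the same from summed intensities (66) and shared 63 of 67 genes after median centring and 61 of 66 after quantile normalization. It held 34 genes with an ein2/ore3 limit of 0.5 and 109 with 1.5, and 78 to 101 when 1 replicate alone was used. Replicate numbers share a slide but no stated culture: over 15 pairs of conditions with the same number, deviations correlated at a median of 0.23 (-0.16 to 0.82), and 11 pairs exceeded 0.1.

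With the replicate block, 25 members were lower in ein2/ore3 than in Col at 1 DAT and 58 at 2 DAT, 22 were lower in ahk3/ore12 than in Col and 26 in ein2/ore3 than in ahk3/ore12 at 2 DAT, and between those days 2 changed in ein2/ore3, 3 in ahk3/ore12 and 17 in Col. All 24 arrays together gave 26 members for ein2/ore3 minus Col at 1 DAT, 24 for ahk3/ore12 minus Col and 25 for ein2/ore3 minus ahk3/ore12 at 2 DAT, and 2 (ahk3/ore12) and 18 (Col) for the step between days. That fit takes part of its spread from the arrays by which the genes were chosen, so its counts support nothing. The t-test without moderation gave 8 for ein2/ore3 minus Col at 1 DAT, 5 for ahk3/ore12 minus Col at 2 DAT. It gave 1 each for the steps of ein2/ore3 and ahk3/ore12. A threshold of 0.01 gave 8 and 25 for ein2/ore3 minus Col at 1 and 2 DAT, 5 for ahk3/ore12 minus Col at 2 DAT, and 0 (ein2/ore3) and 2 (Col) for the steps.

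Leaving out 1 array gave 8 to 38 members for ein2/ore3 minus Col at 1 DAT and 19 to 57 at 2 DAT, 0 to 0 and 1 to 25 for ahk3/ore12 minus Col, 5 to 11 and 8 to 25 for ein2/ore3 minus ahk3/ore12, and 0 to 4 (ein2/ore3), 0 to 1 (ahk3/ore12) and 1 to 30 (Col) for the steps. The ein2/ore3 minus Col difference at 2 DAT changed sign for UMAMIT23 (-0.03 to 0.13 without either ein2/ore3 replicate of that day, lower without replicate 2) and AT4G00700 (-1.27 to 0.055 without either Col replicate, higher without replicate 1). Fits with an array left out have fewer samples, and the cause of the other shifts was not tested. Signals near background limit the faintest levels.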

Other observations

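Between 1 and 2 DAT 12 of the 66 genes were lower at the later time in both ein2/ore3 replicates and higher in both Col replicates: AT1G04500, GA2OX2, AT1G33030, CKX2, AT2G25460, AT3G61930, AT4G19460, MC9, AT5G52050, AT5G55150, AT5G57510 and AGP1. The share was 18.2% of the 66 genes, 7.81% of the other 320 raised genes and 7.42% of all genes, and no test was made of it. For AT5G55150 the steps were -0.19 and -0.12 in ein2/ore3 replicates 1 and 2, against 2.59 and 2.31 in Col. The whole-array median of ein2/ore3 replicate 2 was 9.14 at 1 DAT and 8.91 at 2 DAT. A step as small as -0.12 in that replicate lies within this shift, whose part in the 12 genes was not tested. For GA2OX2 the steps were -0.59 and -0.87 in ein2/ore3, against 1.60 and 3.53 in Col.

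The 66 genes lay on all 5 chromosomes, with 19, 12, 13, 8 and 14 on chromosomes 1 to 5, and 4 pairs were direct neighbours.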
